A study of Mus musculus with 6 samples.

Results

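The genes described here are 2 fibroblast growth factor (FGF) ligands, Fgf8 and Fgf17, and 8 feedback genes and transcriptional targets of the pathway, Dusp4, Dusp6, Spry2, Spry4, Spred2, Il17rd, Etv4 and Etv5. They were taken by symbol from the array's probe annotation, and each of the 10 had exactly 1 probe annotated to a single gene, out of 13840 genes named by such probes. RNA came from presomitic mesoderm, the unsegmented tissue behind the last somite, of mouse embryos at embryonic day 10.5. The 2 groups were wild-type littermates and embryos labelled Nrarp knockout, in which LacZ stands in place of the Nrarp coding sequence, both from crosses between heterozygous parents. Nrarp is a target of Notch whose protein feeds back on Notch signalling, and the replacement is carried by every cell of the embryo. The series concerns Notch signalling, the period of the segmentation clock and the number of vertebrae. The collection came to 12 presomitic mesoderms a genotype, measured on 3 single-colour arrays each. How this tissue was divided among the arrays, and the strain and sex of the embryos, are not stated in the labels. The p-values below therefore reflect the spread from array to array, which may be technical.

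FGF ligands bind receptor tyrosine kinases and act through Ras, Raf, MEK and ERK. In the presomitic mesoderm FGF8 forms a gradient that is high at the tail end and holds cells unsegmented, and several pathway genes cycle there with the segmentation clock. ERK activity induces the ETS factors ETV4 and ETV5 and a set of inhibitors of the same cascade (DUSP phosphatases, Sprouty and Spred proteins and the membrane protein IL17RD, also called SEF), so the transcripts of these genes are widely read as a record of FGF activity.

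Promoter sequences in the RefSeq set (GRCm38.p6) were matched for 5 of the 10 genes, in 6 windows. The 250 bases before the transcription start are shown for 3 of them, because the intensities of Dusp6, Spry2 and Spred2 went different ways across the arrays in the values that follow. The Dusp6 window is chr10:99262981-99263230 on the plus strand, the Spry2 window chr14:105896820-105897069 on the minus strand and the Spred2 window chr11:19924192-19924441 on the plus strand. Each is written 5′ to 3′ on the strand of the gene, and capitals mark a match to 1 of 3 motifs searched on both strands.
Dusp6: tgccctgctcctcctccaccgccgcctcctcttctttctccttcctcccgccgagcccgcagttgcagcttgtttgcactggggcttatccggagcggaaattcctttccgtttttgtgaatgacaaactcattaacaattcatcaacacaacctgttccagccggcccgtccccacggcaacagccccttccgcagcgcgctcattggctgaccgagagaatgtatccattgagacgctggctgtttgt
Spry2: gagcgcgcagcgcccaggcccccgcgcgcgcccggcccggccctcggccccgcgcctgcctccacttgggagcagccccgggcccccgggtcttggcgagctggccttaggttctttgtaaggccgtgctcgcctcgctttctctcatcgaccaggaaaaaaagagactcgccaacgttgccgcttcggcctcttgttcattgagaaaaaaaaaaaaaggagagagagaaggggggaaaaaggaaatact
Spred2: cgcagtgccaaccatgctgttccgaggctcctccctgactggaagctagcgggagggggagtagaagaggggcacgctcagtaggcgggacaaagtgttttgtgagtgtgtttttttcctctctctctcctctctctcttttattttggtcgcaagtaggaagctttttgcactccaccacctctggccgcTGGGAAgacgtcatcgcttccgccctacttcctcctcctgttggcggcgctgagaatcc
The motifs were CCGGAA for ETS factors, TGGGAA for the Notch effector RBPJ and CTTTGA for TCF/LEF, whose letters do not overlap one another in these windows. The single match in the printed windows was TGGGAA in Spred2, starting 59 bases before the start site. The later of the 2 Etv5 start sites held TGGGAA at positions -238 and -229, and 0 matches were found at the earlier Etv5 start and at Il17rd. Of 32851 windows of the same length, 12.0% held CCGGAA, 21.6% held TGGGAA and 13.8% held CTTTGA. A match is a description of the letters only.

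The deposited values were intensities scaled to array medians of 0.981 to 0.993, and an intensity of 1 is therefore close to the middle of an array. The arrays numbered 1 stood apart in both genotypes: the ratio of their 75th to their 10th percentile was 42.7 and 56.9, against 12.4 to 16.0 on the other 4 arrays. The Nrarp probe read 318, 429 and 448 on the wild-type arrays and 14.3, 42.5 and 23.3 on the knockout arrays (replicates 1, 2 and 3). Whether that probe lies in the replaced part was not given. Of 9 markers fixed for posterior presomitic mesoderm, 8 had a named probe (the T gene had none), and all 8 lay above the array median on all 6 arrays. On the arrays numbered 2 and 3, however, Hes7 read only 1.19 to 2.09 and Msgn1 2.80 to 4.30.

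No ligand, inhibitor or ETS gene of this set was called different between Nrarp knockout and wild-type tissue. The differences farthest from 0 on the log2 scale were 0.86 for the ETS gene Etv5, 0.46 for the Raf inhibitor gene Spred2, -0.39 for the ligand gene Fgf8, 0.37 for Il17rd and -0.32 for the ERK phosphatase gene Dusp6. None of the 10 genes passed in limma with the replicate number as a block (0 of 10), nor without it (0 of 10). The unblocked fit called none of the changes seeded into simulated data of this design, so its count of 0 says little about these genes. The blocked fit called 46% of seeded 2-fold and 88.8% of seeded 4-fold changes, so its count of 0 can also miss such differences. Of its calls in the simulated data 7.54% were false. Each simulated run held 200 seeded changes and gave 145.8 calls on average, against 2 in the real data. The Benjamini-Hochberg adjustment is looser where more probes pass, so the recovery rates may be too high for these 10 genes. Over all 33012 probes the same fits called 0.0% and 0.00606% (0 and 2 probes). Adjusted p-values of these genes were 1.00 in the unblocked fit and 0.999 or above in the blocked one, and the 3 wild-type and 3 knockout values overlapped for all 10 genes. Groups that do not overlap were found for 3.78% of all probes. Both replicate 1 arrays lay above the other 4 for 7 of the 10 genes and below them for 1. For such genes the groups had to overlap whatever the genotype difference, so the overlap says little about them. An unadjusted p under 0.05 was reached by 0 of the 10 genes without the block (0.657% of all probes) and by 2 with it (3.75% of all probes), Dusp6 on the lower side (1.99% of all probes were lower) and Etv5 on the higher side (1.76%).

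**Figure D1:**
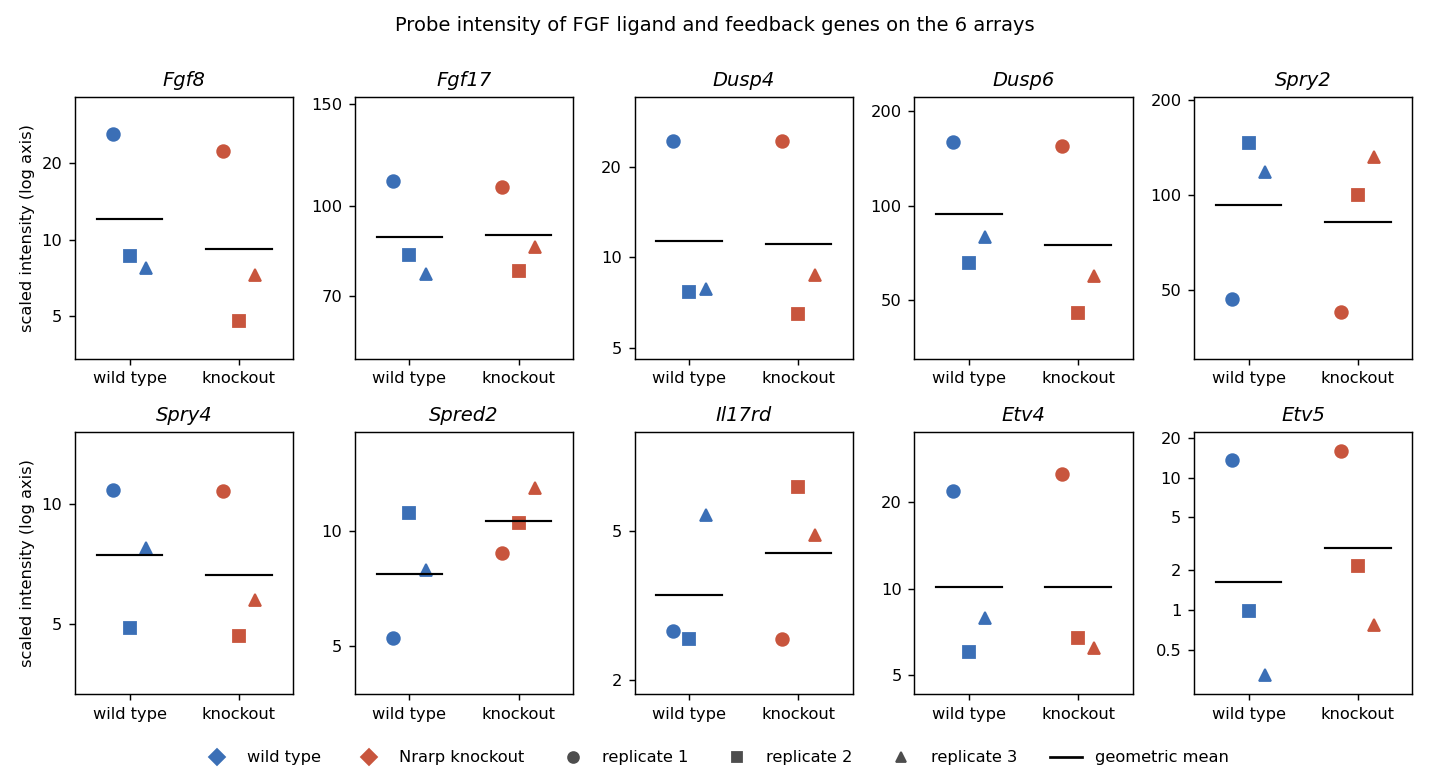
Scaled probe intensity (log axis) of each gene on the 6 arrays, by genotype (colour) and replicate number (shape), with the geometric mean of 3 arrays as a bar. For Fgf8, Fgf17, Dusp4, Dusp6, Spry4, Etv4 and Etv5 the 2 circles of replicate 1 sit above the other 4 arrays, for Spry2 they sit below them, and in every panel the genotypes overlap.

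The ligand gene Fgf8, the main FGF of the posterior gradient, read 26.1, 8.63 and 7.77 on the wild-type arrays and 22.4, 4.78 and 7.24 on the knockout arrays (replicates 1, 2 and 3). Each knockout array lay below the wild-type array of the same number, and both knockout arrays of replicates 2 and 3 lay below both wild-type arrays of these numbers. The replicate 1 arrays of both genotypes were above all others, so the groups overlapped. The log2 difference, knockout minus wild type, was -0.39 (SE 0.693, n = 3 a group, exact permutation p = 0.5, two-sided), where 0.1 is the smallest p that 3 against 3 arrays allow. The permutation ignored the replicate numbers, so the height of the replicate 1 arrays enters its p. With the replicate block the SE was 0.196 and the 95% interval ran from -0.84 to 0.05. Without wild-type replicate 1 the unblocked difference was 0.16, and without knockout replicate 2 it was 0.08. Leaving out a single array unbalances the replicate numbers, so these values mix the genotype difference with that between replicate numbers. With arrays centred on their 75th percentiles the difference within replicate 3 went from -0.10 to 0.01.

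Fgf17, a ligand of the same subfamily that is expressed beside Fgf8 in the tail, was the gene with the least spread. It read 110.5, 82.4 and 76.3 on the wild-type arrays and 108, 77.4 and 84.9 on the knockout arrays. Its mean was 89.7 ± 18.2 (SD, n = 3) and 90.0 ± 15.8 (SD, n = 3), and the log2 difference was 0.01. The blocked interval, -0.24 to 0.26, corresponds to a knockout level between 0.847 and 1.19 times that of wild type. Without the block the interval was -0.62 to 0.63, and Fgf17 was the only one of the 10 genes whose unblocked interval excluded a 2-fold difference in both directions.

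Dusp6 encodes the cytoplasmic phosphatase that removes the activating phosphates from ERK and is a standard reporter of FGF activity. It read 159, 65.5 and 79.4 on the wild-type arrays and 155, 45.6 and 59.6 on the knockout arrays. As for Fgf8, both knockout arrays of replicates 2 and 3 lay below both wild-type arrays of these numbers, while replicate 1 differed little. The log2 difference was -0.32 (blocked SE 0.125, 95% interval -0.61 to -0.04, limma unadjusted p = 0.0298 and adjusted p = 0.999 with the block). Within replicates 1, 2 and 3 the log2 differences were -0.04, -0.52 and -0.41, and they stayed negative after either quantile normalization or 75th percentile centring. Leaving out wild-type replicate 1, the unblocked difference was 0.06, and without knockout replicate 2 it was 0.03. As for Fgf8, these values come from unbalanced replicate numbers and mix both kinds of difference. Knockout arrays 2 and 3 lay below both wild-type arrays 2 and 3 for 16.2% of all probes. The fuller arrangement shared by Fgf8 and Dusp6 (knockout arrays 2 and 3 below both wild-type arrays 2 and 3, and knockout 1 below wild type 1) was held by 6.87% of all probes and by 6.49% of probes above the median level.

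Dusp4, which encodes a nuclear phosphatase of ERK and other MAP kinases, read 24.4, 7.69 and 7.86 on the wild-type arrays and 24.2, 6.47 and 8.72 on the knockout arrays. Its log2 differences within replicates were -0.01, -0.25 and 0.15, with a mean of -0.04 and a blocked interval of -0.42 to 0.35. Within replicates 2 and 3 the knockout held both the lowest and the highest value.

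The Sprouty genes encode membrane-linked inhibitors of receptor tyrosine kinase signalling to Ras and Raf. Spry2 read 46.9, 146 and 118 on the wild-type arrays and 42.4, 99.5 and 132 on the knockout arrays, with a log2 difference of -0.18 (blocked interval -0.50 to 0.15). It was the gene for which both replicate 1 arrays lay below the other 4. Spry4 read 10.8, 4.91 and 7.78 on the wild-type arrays and 10.8, 4.69 and 5.76 on the knockout arrays. Its log2 differences within replicates were -0.001, -0.07 and -0.43, and its mean difference was -0.17 (blocked interval -0.61 to 0.28). The difference within replicate 2 turned to 0.12 under quantile normalization and to 0.11 under centring on 75th percentiles.

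Spred2 encodes a Sprouty-related protein that holds Raf activation in check. It read 5.23, 11.1 and 7.90 on the wild-type arrays and 8.75, 10.5 and 12.9 on the knockout arrays. The knockout was higher within replicates 1 and 3, by 0.74 and 0.71 on the log2 scale, and level within replicate 2 (-0.09, or 0.07 and 0.09 under the other scalings). The mean difference of 0.46 had a blocked interval of -0.03 to 0.94 and kept its sign when any single array was left out (0.17 to 0.72). Il17rd, which encodes a transmembrane inhibitor acting at the FGF receptor, read 2.70, 2.57 and 5.53 on the wild-type arrays and 2.58, 6.58 and 4.90 on the knockout arrays. Its difference of 0.37 (blocked interval -0.38 to 1.12) rests on replicate 2, where it was 1.35, against -0.07 and -0.18 in replicates 1 and 3, and it was 0.0747 without knockout replicate 2.

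The ETS genes differed between arrays far more than between genotypes. Etv4 read 21.8, 6.02 and 7.92 on the wild-type arrays and 25.1, 6.76 and 6.19 on the knockout arrays, with a log2 difference of 0.005 (blocked interval -0.42 to 0.43). Etv5 read 13.6, 0.982 and 0.323 on the wild-type arrays and 15.8, 2.14 and 0.762 on the knockout arrays. The knockout value was higher within each replicate number, by 0.21, 1.12 and 1.24, also under both other scalings. The mean difference was 0.86 (blocked SE 0.335, 95% interval 0.09 to 1.62, limma unadjusted p = 0.0317 and adjusted p = 0.999 with the block). With log2(intensity + 1) the difference was 0.42. However, 3 of the 6 Etv5 readings lay below the median of their array. Knockout replicate 3 lay below wild-type replicate 2, a match that gives -0.36, while knockout replicate 2 against wild-type replicate 3 gives 2.73. Of the 4 matches between knockout and wild-type replicates 2 and 3, 1 was lower in the knockout. Without wild-type replicate 3 the unblocked difference was -0.31, and without knockout replicate 1 it was -0.35. Here too the replicate numbers were unbalanced, so these values mix the genotype difference with that between replicate numbers.

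**Figure D2:**
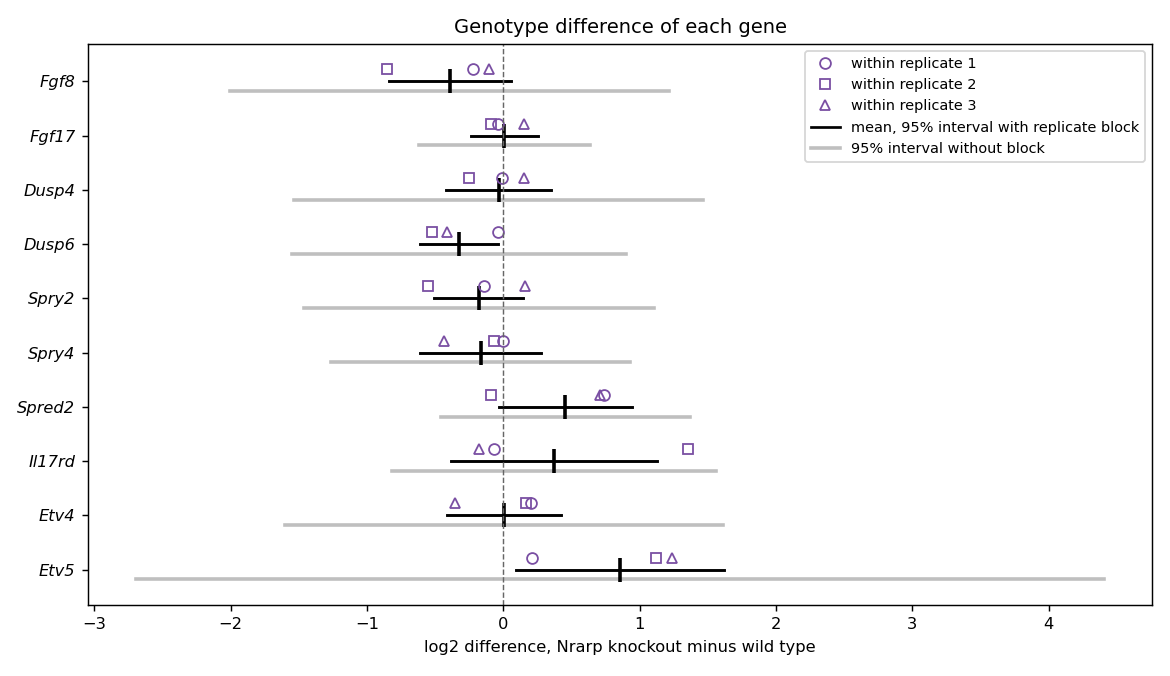
Log2 difference of each gene, knockout minus wild type: open symbols are the differences within replicates 1, 2 and 3, the black tick and bar are the mean and 95% interval of the limma fit with the replicate block, and the grey bar is the 95% interval without it. The black bars of Dusp6 (-0.61 to -0.04) and Etv5 (0.09 to 1.62) leave out 0, neither with an adjusted p under 0.05, and every grey bar spans 0.

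Of these genes 5 had a positive and 5 a negative difference, and the median was -0.02, against -0.01 over all probes. The median size without regard to sign was 0.25 for these genes, 0.22 for all probes and 0.15 for probes above the median level. Fgf8, Dusp6 and Spry4 were lower in the knockout within all 3 replicate numbers as deposited, and Etv5 was higher. For Spry4 and Etv5 this depended on how numbers 2 and 3 were matched. Knockout 3 minus wild type 2 was 0.23 for Spry4 and -0.36 for Etv5. Over all probes 10.5% were lower in all 3 and 13.2% were higher. Under quantile normalization the genes lower in all 3 were Fgf8 and Dusp6, under centring on 75th percentiles Dusp6 alone, and under both Spred2 joined Etv5 on the higher side. With the block, 8 of the 10 intervals excluded a 2-fold difference in both directions, and those of Il17rd and Etv5 did not. These intervals bound the size of a difference and do not show that the genotypes were alike.

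A larger difference lay between the replicate numbers, and it had the same sign in both genotypes for all 10 genes. The share of all probes that agree in this way is not given here. Over all probes the deviations of the replicate 1 arrays from their group means correlated by 0.757 between genotypes, so such agreement is not particular to these genes. Replicate 1 exceeded the mean of replicates 2 and 3 on the log2 scale by 1.67 in wild type and 1.93 in the knockout for Fgf8, by 1.65 and 1.69 for Dusp4, by 1.14 and 1.57 for Dusp6 and by 1.66 and 1.96 for Etv4. For Etv5 it was 4.60 and 3.63. It was 0.81 and 1.06 for Spry4, and 0.48 and 0.41 for Fgf17. Spry2 went the other way by -1.48 and -1.43, as did Spred2 (-0.84 and -0.41) and Il17rd (-0.48 and -1.14). Averaged over both genotypes, the size of this difference exceeded that of the genotype difference for all 10 genes, from 1.38 times for Spred2 to 8.16 times for Spry2 among the 7 genes whose genotype difference was over 0.1 in size. The array-wide values went the same way. The median size between replicate numbers was 1.41 for these genes, 0.86 for all probes and 0.78 for probes above the median level. Between genotypes it was 0.25, 0.22 and 0.15.

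The inhibitor genes were thus split, with Dusp4, Dusp6 and Spry4 brighter and Spry2, Spred2 and Il17rd dimmer on the replicate 1 arrays. The difference reached 2-fold for 6 of the 10 genes, against 42.4% of all probes and 40.4% of probes above the median level. Both replicate 1 arrays lay above all other arrays for 7 of the 10 genes and below them for 1. Among probes above the median level 45.5% lay above and 22.2% below, and over all probes 25.2% and 34.4%. After quantile normalization the counts were 6 above and 3 below (32.9% and 35.9% of probes above the median level), and after centring on 75th percentiles 5 and 4 (26.5% and 47.2%). The scaling matters here, since the median over all probes of replicate 1 minus replicates 2 and 3 was -0.33 as deposited, -0.11 after quantile normalization and -1.11 after centring on 75th percentiles. Under those last 2 scalings Fgf8 still differed by 1.11 and 1.02, Dusp4 by 0.99 and 0.89, Dusp6 by 1.19 and 0.58, Etv4 by 1.11 and 1.03, and Etv5 by 3.63 and 3.34. Spry2 differed by -1.80 and -2.23, Spred2 by -1.35 and -1.40 and Il17rd by -1.35 and -1.59. Spry4 came down to 0.15 and 0.16, and Fgf17 to 0.25 and, with its sign turned, -0.33. What the replicate numbers stand for was not given, so this is a description with no test.

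**Figure D3:**
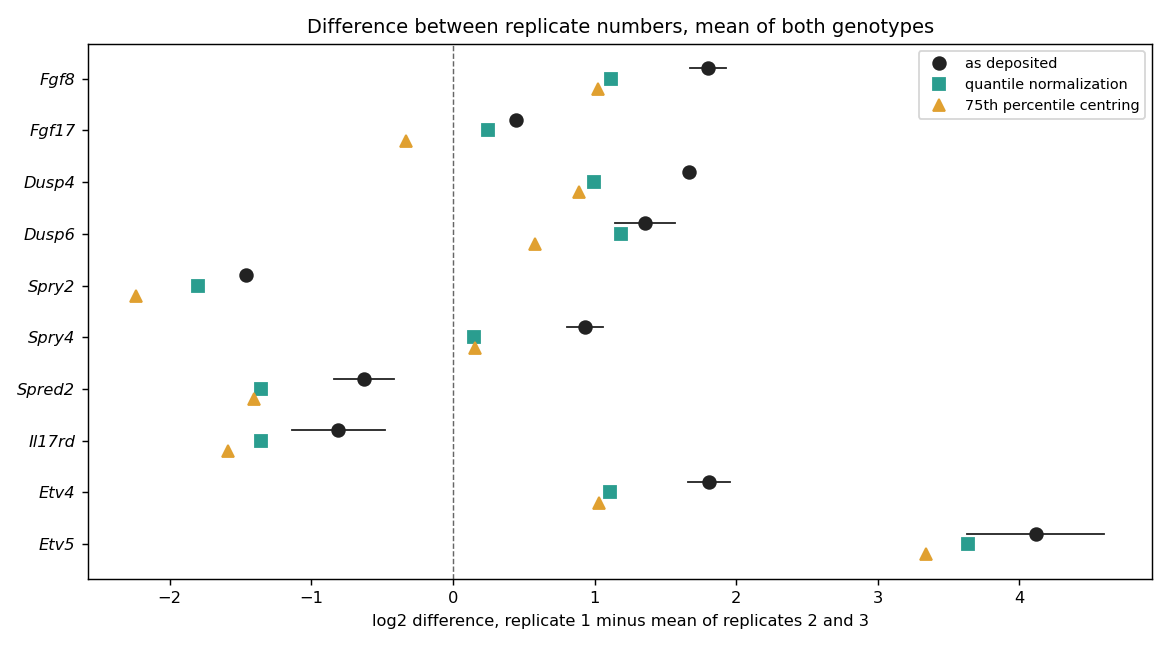
Log2 difference between replicate 1 and the mean of replicates 2 and 3, averaged over both genotypes, as deposited (circles), after quantile normalization (squares) and after centring on 75th percentiles (triangles). Thin lines join the wild-type and knockout values as deposited. Etv5 lies farthest to the right (4.11 as deposited), Spry2, Spred2 and Il17rd stay left of 0 under all 3, and Fgf17 crosses 0 with 75th percentile centring.

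Several markers of presomitic mesoderm and of other tissues also differed between the replicate numbers, with members of most lists going both ways. They were read only as deposited. In that scaling both replicate 1 arrays lay above the other 4 for 25.2% of all probes and below them for 34.4%. Among probes above the median level the shares were 45.5% and 22.2%. Of the 8 posterior presomitic markers 5 were higher and 2 lower on both replicate 1 arrays than on the other 4 (median log2 difference 0.55). The transcription factor gene Msgn1 read 50.2 and 50.1 on the replicate 1 arrays against 2.80 to 4.30 on the others, and the clock gene Hes7 54.2 and 64.1 against 1.19 to 2.09. The bright T-box gene Tbx6 went the other way, and the sum of the list was 1424 to 1496 against 1530 to 1701. Of 14 anterior and somite markers 6 were higher and 4 lower (median -0.01).

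Limb bud markers were lower on the replicate 1 arrays for 7 of 11 and higher for 0 (median -0.87). The limb sum of 131 to 132 against 210 to 249 was mostly Sp8, Dlx5 and Msx2, with Sp8 at 51.5 and 53.1 against 90.2 to 135. Surface ectoderm markers were higher for 4 of 9 and lower for 0 (median 0.81, sum 388 to 408 against 264 to 272). In the neural, gut, endothelial and blood lists the sum and the median went opposite ways. However, the first 3 of these medians are each the value of 1 dim gene. These are Nkx6-1 (0.367 to 0.952), Spink1 (0.497 to 1.73) and Cdh5 (0.201 to 0.776). The surface ectoderm median is likewise that of Trp63 (0.405 to 1.19). Dim readings also lay lower on the arrays numbered 1 (10th percentiles 0.208 and 0.171, against 0.349 to 0.396). The part of this in the medians was not tested. The neural tube sum was 226 to 230 against 88.9 to 128, of which the neuronal tubulin gene Tubb3 made up 190 to 199 and 64.6 to 96.4, while 4 of the 9 markers were lower and 2 higher (median -0.85). The gut endoderm sum of 101 to 113 against 39.6 to 63.5 was mostly Cdx2 (89.1 and 104 against 24.8 to 39.2), a gene that the tail bud also expresses, with 2 of 7 markers higher and 2 lower (median -0.90). The endothelial sum was 83.1 to 83.5 against 89.8 to 119, with 3 of 7 markers higher and 2 lower (median 0.78). The primitive blood sum was 4906 to 5795 against 6687 to 7747, with 2 of 6 higher and 1 lower (median 0.21). For 4 notochord markers the sum was 23.1 to 26.3 against 13.7 to 17.1, with 2 higher and 1 lower (median 0.56).

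The limb genes Tbx5 and Tbx4 stayed below the array median on all 6 arrays, and 5 of the 11 limb markers (Pitx1, Msx1, Msx2, Dlx5 and Sp8) stayed above it. The neural genes Sox1, Pax6 and Nkx6-1 stayed below it, and 4 of the 9 neural markers stayed above it. Between genotypes the sums overlapped for 8 of the 9 lists. The exception was the anterior and somite list, at 887 to 1047 over wild-type and 1086 to 1097 over knockout arrays, although its markers were split 7 to 7 between higher and lower means on the log2 scale (median difference -0.003). The part of these markers in the results for FGF genes was not tested. In such bulk tissue, fewer cells of a type and less RNA per cell cannot be told apart.

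The rest of the pathway was read from 6 lists with 85 measured genes, each counted once. In limma 0 of them passed without the block, and with it 1 passed, the replaced gene Nrarp (lower). An unadjusted p under 0.05 was reached by 1 of them without the block (0.657% of all probes) and by 6 with it (3.75% of all probes), Nrarp among them in both. The 14 other FGF ligands were split 7 to 7 between positive and negative log2 differences (median -0.03), and only 4 of them lay above the median level of all probes. The 2 brighter ligands with the smallest p were Fgf11 (-0.68) and Fgf12 (-0.35). Fgf18, chosen after its values were seen because it belongs to the subfamily of Fgf8 and Fgf17, read 33.4, 13.2 and 15.1 on the wild-type arrays and 39.5, 14.7 and 16.1 on the knockout arrays. Its log2 difference was 0.16.

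Receptors and coreceptors had 9 positive and 5 negative differences (median 0.10). Fgfr3 differed by 0.59, at readings of only 0.562 to 2.93, and the syndecan gene Sdc4 by -0.45, and neither passed. Fgfr1, the main receptor of the presomitic mesoderm and likewise named after its values were seen, read 45.9, 4.85 and 3.56 on the wild-type arrays and 49.0, 2.79 and 4.12 on the knockout arrays. For 11 of the 14 genes of this list both replicate 1 arrays lay above the other 4. The same held for 25.2% of all probes and 45.5% of probes above the median level. It held for 2 of 14 other ligands, 6 of 12 heparan sulphate enzymes and 5 of 11 transducers. Among other feedback genes and targets it held for 8 of 21, and among FGF-linked genes for 8 of 13. The heparan sulphate enzymes (12 measured) had a median of 0.05, with Ndst2 at 0.33 and the sulphotransferase gene Hs6st1 at 0.28. The 11 Ras and ERK transducers had a median of 0.01, with the adaptor gene Frs3 at -0.36 and the exchange factor gene Sos1 at -0.76. Within replicates 1, 2 and 3 Sos1 differed by 0.30, -2.08 and -0.50.

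Among 21 other feedback genes and targets the split was 12 positive to 9 negative (median 0.01). Dusp10, a phosphatase of stress-activated kinases, differed by 0.75 and the ETS repressor gene Erf by -0.28. However, Dusp10 read only 0.910 to 3.41, and its differences within replicates 1, 2 and 3 were -0.60, 1.47 and 1.38. The 13 measured FGF-linked genes of the presomitic mesoderm had a median of -0.01, and Mesp2, which marks the next segment border and is kept off by FGF in posterior tissue, differed by 0.56. In the same list, and chosen after their values were seen for their blocked p, Snai1 and Tbx6 were higher in the knockout within all 3 replicate numbers. So were Mesp2 and Dkk1 of this list, several genes of the other lists and 13.2% of all probes. Snai1, which encodes a repressor of epithelial genes, read 25.3, 10.9 and 6.54 on the wild-type arrays and 30.9, 18.5 and 13.3 on the knockout arrays. Its log2 difference was 0.69 (limma unadjusted p = 0.00394 and adjusted p = 0.999 with the block). For Mesp2 the blocked unadjusted p was 0.00974, and for Tbx6, at a difference of 0.23, it was 0.0281, with adjusted p = 0.999 for both. Frs3, whose product links FGF receptors to Ras, read 75.2, 65.9 and 91.9 on the wild-type arrays and 58.3, 61.9 and 59.8 on the knockout arrays, so its groups did not overlap, as for 3.78% of all probes. Its blocked unadjusted p was 0.0224 and its adjusted p 0.999 in limma. Frs3 was not the only listed gene of this kind. The groups of Map2k2 (154 to 173 in wild type, 181 to 188 in the knockout), Ndst2, Fgfr4 and Fgf20 did not overlap either, each higher in the knockout. Those of Nrarp, lower in the knockout, also stood apart. Fgfr4 and Fgf20 lay below the median level of all probes.

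**Figure D4:**
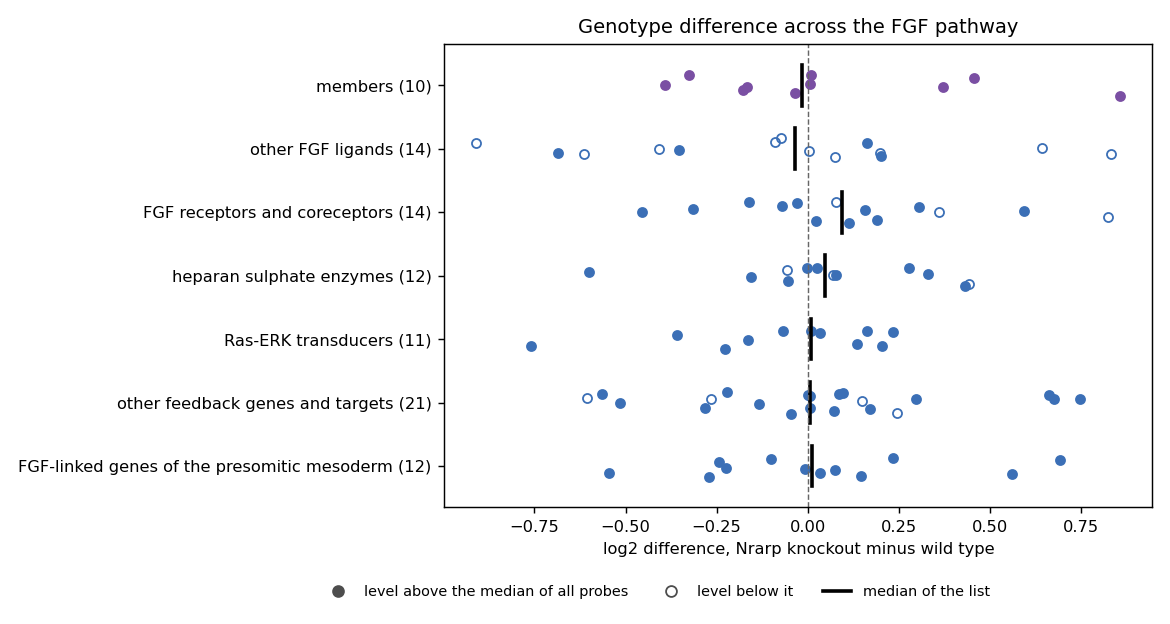
Log2 difference, knockout minus wild type, of each measured gene in the 10 described genes (purple) and in 6 lists of other pathway genes (blue, Nrarp left out), with the list median as a bar and open circles for genes below the median level of all probes. Medians lie between -0.03 and 0.10, and no plotted gene passed the test.

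The genes whose profile over the 6 arrays was most like that of Fgf8 lay outside the FGF lists. By the root mean square difference of log2 profiles, each centred on its own mean, the nearest of 8649 genes above the median level were Rfk (0.0851), Atp5md (0.0967), Ube2g1 (0.110), Gna11 (0.114) and Copa (0.116). Rfk, a riboflavin kinase gene, read 35.8, 12.3 and 10.4 on the wild-type arrays and 32.9, 7.31 and 11.5 on the knockout arrays. Among the feedback genes Dusp4 ranked 142 (0.209), Dusp6 366 (0.256) and Etv4 883 (0.330). Spry4 ranked 2231, Fgf17 3776, Spred2 7694, Il17rd 8232, Etv5 8398 and Spry2 8459. The profiles share the replicate 1 step that many probes on these arrays showed.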

How the data were processed

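Digoxigenin-labelled cRNA was made by in vitro transcription and read on single-colour Applied Biosystems arrays, per the labels' protocols. The labels name a human array, while the organism and the probe annotation are mouse. The authors deposited linear intensities scaled to a common array median. How they corrected background, flagged or filtered spots and scaled arrays is not given in the sources used here. All 6 arrays were used, and 0 of 15 array pairs held identical values. Of 33012 probes 14411 were annotated to 1 gene, 247 to several and 18354 were unnamed. Where a gene had several probes, the brightest by mean log2 was taken.

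Deposited intensities were converted to log2 with no offset or filter. Genotypes were compared with limma 3.58.1 in R 4.3.3 (lmFit, eBayes with an intensity trend, two-sided, Benjamini-Hochberg adjustment over all probes, threshold 0.05) and by an exact permutation test for single genes. The code was tested on simulated data, where the unblocked fit recovered no seeded change and the blocked fit some of them. The fit left 4 residual degrees of freedom, and 2 once the replicate block was added. Deviations from group means correlated by 0.757, 0.442 and 0.374 within replicate numbers, all over 0.1, and arrays were therefore paired by number. Across numbers 2 and 3 they correlated by 0.397 and 0.419, so the pairing rests on replicate 1.

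The genes, lists, marker lists and tests were chosen with earlier results of these data known. In each list the 2 genes above the median level with the smallest p in the unblocked fit were named, with any that passed. By the blocked p Snai1 would stand ahead of Mesp2, Cic ahead of Dusp10, Gpc3 ahead of Fgfr3, Extl2 ahead of Ndst2 and Fgf18 ahead of Fgf12. Figures were drawn with matplotlib 3.10.9.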

Additional observations from a re-analysis of the deposited data

How the results depend on the processing

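For the 10 genes 0 passed in limma under each of 16 alternatives, whose smallest adjusted p was 0.584. The unblocked fit called no change seeded into simulated data, so its count of 0 shows no stability. Over all probes the count of 0 became 2 with the replicate block, also with quantile normalization or with pairs 2 and 3 alone, and 1 with array weights, but stayed 0 with the block and no intensity trend. With the replicate block 1 gene of the other pathway lists passed, Nrarp. The median over the 10 genes was -0.02, from -0.44 to 0.17 when single arrays were left out, which unbalances the replicate numbers. The same holds for each gene, whose values with an array left out mix the genotype and replicate differences. The log2 difference with single arrays left out ran from -1.04 to 0.16 for Fgf8, -0.13 to 0.17 for Fgf17, -0.60 to 0.51 for Dusp4, -0.85 to 0.0558 for Dusp6, -0.67 to 0.30 for Spry2, -0.52 to 0.10 for Spry4, -0.65 to 0.56 for Etv4, -0.35 to 2.39 for Etv5, 0.17 to 0.72 for Spred2 and 0.0747 to 0.75 for Il17rd. Other reversals were Fgf17 at -0.0204 with quantile normalization (with or without the block), Dusp4 at 0.0173 with centring on 75th percentiles and at 0.0209 with array weights, Spry2 at 0.0342 with array weights, and Etv4 at -0.0940 with the block on pairs 2 and 3 and at -0.23 with array weights. The cause was not tested. Spred2 and Il17rd kept their sign under all 16. Etv5 fell from 0.86 to 0.42 with log2(intensity + 1). The other scalings of the replicate 1 difference and of the signs within replicate numbers were chosen after seeing the data, and under 1 of them, centring on 75th percentiles, the replicate 1 difference of Fgf17 turned to -0.33. Averaging several probes of a gene was not run, as each gene has 1. The small number of arrays limits every value.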
